A study of Mus musculus with 4 samples.

Results

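A set of 34 genes of glycolysis and of the transcriptional response to low oxygen was followed in cultured aortic smooth muscle cells from mice with or without Cre-dependent deletion of Mmp14, the gene of the membrane collagenase MT1-MMP. A gene entered through an array row whose annotation gave its symbol alone. Where several rows did so, the brightest on average across the arrays stood for the gene. Of the 34 genes, 30 had such a row, among 22180 genes of the whole array, and all 30 were among the 12550 genes bright enough to be tested. The other 4 were Gpi1 and Eno1, for which no row was listed, and Aldoa and Ankrd37, whose rows were shared with Aldoart1 and Lrp2bp and were not used.

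Vascular smooth muscle cells (VSMCs) contract the arterial wall and here were primary cultures from collagenase-digested thoracic aortas without adventitia, grown for 5 days in high-glucose medium with serum. MT1-MMP cleaves collagen and other proteins at the cell surface. The 2 knockout arrays came from mice of genotype SM22α-Cre(+)Mmp14(fl/fl)Apoe(−/−) and the 2 control arrays from SM22α-Cre(−)Mmp14(fl/fl)Apoe(−/−) mice. All animals thus lacked Apoe, a lipoprotein component whose loss raises plasma cholesterol, carried floxed Mmp14 alleles and had eaten a Western diet for 3 months. Cre ran from the SM22α (Tagln) promoter, which is active in smooth muscle, so cells of other types in a culture can keep Mmp14. The design names 2 independent pairs of mice, and the p-values cover the spread between mice, cultures and arrays together.

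Glycolysis splits glucose into pyruvate in the cytosol. Hexokinase, phosphofructokinase and pyruvate kinase are its regulated steps, and most steps have several isoenzymes encoded by different genes. Pyruvate is either reduced to lactate and exported or taken into mitochondria and oxidised by the pyruvate dehydrogenase complex, which the pyruvate dehydrogenase kinases switch off. The hypoxia-inducible factors HIF-1 and HIF-2 raise transcription of many of these genes when oxygen is low. In normal oxygen, prolyl hydroxylases of the Egln family mark their alpha subunits for destruction. Arterial smooth muscle is known to draw much of its energy from glycolysis with lactate output, even when oxygen is plentiful.

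The values are log2 array values after RMA, a procedure that corrects background, equalises the arrays and summarises the probes of a transcript. Array medians were 3.03 to 3.05 in the knockouts and 3.01 in both controls, and Pearson's r between arrays was 0.974 to 0.982 across all rows. Mmp14 read 8.27 and 8.19 in the knockout arrays, against 8.71 and 9.05 in the control arrays. That log2 difference of -0.65 (SE 0.17) left much of the signal in place and did not pass the test over all genes (limma, adjusted p = 0.319). The row may hold probes outside the floxed exons, which would limit it as a check of the labels. Neither this nor the part of cells that kept Mmp14 was tested. Apoe, disrupted in both groups, averaged 4.63 ± 0.25 in knockout and 4.99 ± 0.02 in control arrays (SD, n = 2 each). Tagln, a smooth muscle marker, read 10.41 and 9.81 in the knockout arrays, against 10.46 and 9.77 in the control arrays. The 10 smooth muscle markers averaged 6.82 and 6.41 in the knockouts, against 6.70 and 6.56 in the controls. Macrophage transcripts were present in both groups and higher in the knockouts, where the 14 tested markers had mean log2 levels of 7.98 and 8.31, against 7.10 and 7.07 in the controls.

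Across the 30 genes, the differences of greatest size were those of Pdk4, Pdk1 and Hk3. Contrasts between genes were computed only for isoenzymes of the same step. Hk3, the hexokinase known from leukocytes, and Pdk1, a HIF-induced pyruvate dehydrogenase kinase, were higher in both knockout arrays, on average by more than 1 log2 unit. Pdk4, another kinase of the same family, and Ero1a, an oxidase of the endoplasmic reticulum, were lower. Most enzymes of the main path differed by under 0.5 log2 units. None of the 30 passed the test over all genes. Benjamini-Hochberg adjustment of the limma fit left 0 of 12550 genes (0%) below 0.05, and Hk3 had the lowest adjusted p of the 30, 0.161.

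At an unadjusted p under 0.05 in limma there were 4 of the 30 genes (13.3%), close to the 11.7% of all genes tested (1465 genes). These were Hk3 and Pdk1 as higher, a direction that 4.89% of all genes met, and Pdk4 and Ero1a as lower, a direction that 6.78% met. The knockout values lay wholly above or wholly below the control values for 14 genes (46.7%), against 44.3% of all genes. Of these, 9 were higher in the knockouts (30%, against 16.7% of all genes) and 5 were lower (16.7%, against 27.5%). The median difference of the 30 was 0.19, with 21 genes higher and 9 lower in the knockouts. Over all genes it was -0.052, with 41.7% higher and 58.3% lower. Without control replicate 1 the median of the 30 was 0.033 with 17 above 0, and without knockout replicate 2 it was 0.10. With 2 arrays a group, no exact permutation test of a single value could give a two-sided p below 0.333.

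**Figure D1:**
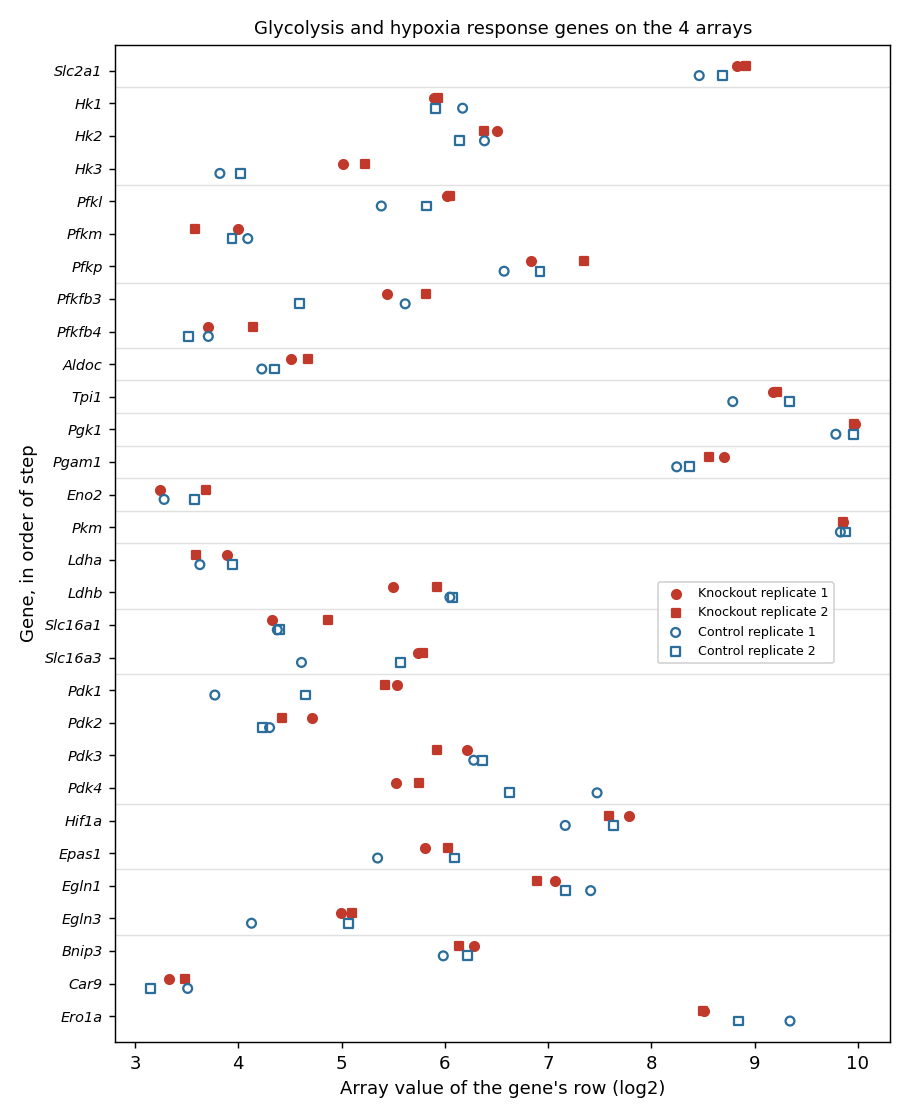
Log2 array values of the 30 genes on the 4 arrays, in order of step, with knockout arrays as filled red and control arrays as open blue symbols (circle, replicate 1; square, replicate 2). Hk3, Pdk1 and Pdk4 show the widest separation between groups, and in Slc16a3, Egln3 and Epas1 control replicate 1 lies apart from the other 3 arrays.

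Slc2a1 encodes GLUT1, the main glucose transporter of cells that do not depend on insulin. It read 8.83 and 8.92 in the knockout arrays, against 8.46 and 8.68 in the control arrays. Both knockout arrays lay above both controls, by a mean of 0.30 log2 units (SE 0.15; limma, adjusted p = 0.525), or 0.19 without control replicate 1. A second, dimmer Slc2a1 row differed by 0.074.

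Hexokinase traps glucose in the cell as glucose 6-phosphate. Hk1 and Hk2 sit on mitochondria, Hk1 in most tissues and Hk2 as the form induced by insulin and by low oxygen, whereas Hk3 is known mainly from myeloid cells. Hk3 read 5.01 and 5.23 in the knockout arrays, against 3.82 and 4.02 in the control arrays. The groups were separated by far more than the gap within either, and the mean difference was 1.20 (SE 0.16, 95% interval 0.78 to 1.62), a 2.30-fold ratio (limma, adjusted p = 0.161). Among all 12550 genes Hk3 ranked 70th by p-value.

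Hk2 read 6.50 and 6.37 in the knockout arrays, against 6.38 and 6.14 in the control arrays, and the groups overlapped (difference 0.18, SE 0.16, and 0.055 without control replicate 2). Hk1 read 5.89 and 5.93 in the knockout arrays, against 6.17 and 5.91 in the control arrays, and its sign turned when control replicate 1 was left out. The large hexokinase difference was thus that of Hk3. The 14 tested macrophage markers, of 15 on the list, were all higher on average in the same arrays, with a median of 1.09 and with 12 of them free of overlap, where 16.7% of all genes were higher without overlap. Without knockout replicate 2, 12 were higher and 2 lower. Ptprc, the leukocyte antigen CD45, differed by 1.75, and Adgre1, a macrophage surface receptor, by 1.74, while Cd163, a scavenger receptor, lay below the filter. The part of the macrophage transcripts in the Hk3 difference was not tested, and in bulk RNA more cells of a type and more RNA per cell cannot be told apart.

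HIF binds DNA at short sites with the core ACGTG or GCGTG. RefSeq promoter windows (GRCm38.p6, 250 bases before to 50 after a transcript start) were listed for 33 of the 34 genes, all but Epas1. The core was found on either strand in at least 1 window of 30 of these 33 genes (90.9%), all but Eno2, Gpi1 and Tpi1. Among all genes with a window the share was 46.7%, and among those tested on the array 64.8%. Per window of 300 bases, 80.9% of the 47 windows of these genes held it. The share was 43.8% of all 32851 windows and 59.5% of the 12439 windows of genes tested on the array. The list was chosen as glycolysis and hypoxia response genes, so this excess is not independent of the choice. A match is a run of letters and not a known binding site, and where it reads CACGTG it is also an E-box. The windows of Hk3 and Hk2 are shown, with the core in capitals, because these isoenzymes share a step and only the Hk3 groups were free of overlap.
Hk3, chr13:55021336-55021635, minus strand: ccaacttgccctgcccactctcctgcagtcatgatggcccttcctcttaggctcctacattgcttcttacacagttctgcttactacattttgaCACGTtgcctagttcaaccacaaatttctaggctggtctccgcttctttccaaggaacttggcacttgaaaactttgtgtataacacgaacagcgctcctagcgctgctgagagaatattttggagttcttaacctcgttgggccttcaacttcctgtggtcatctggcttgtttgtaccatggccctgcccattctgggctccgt
Hk2, chr6:82774405-82774704, minus strand: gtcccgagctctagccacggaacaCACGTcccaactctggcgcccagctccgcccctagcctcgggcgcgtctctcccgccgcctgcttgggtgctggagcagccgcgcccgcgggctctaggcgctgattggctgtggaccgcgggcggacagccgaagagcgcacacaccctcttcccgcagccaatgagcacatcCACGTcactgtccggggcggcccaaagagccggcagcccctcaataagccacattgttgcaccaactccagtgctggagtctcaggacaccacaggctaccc
The Hk3 window held 1 match, on the minus strand (CACGT as printed), and the Hk2 window held 2, also on the minus strand.

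Phosphofructokinase-1 commits the sugar to glycolysis, and its 3 subunits are named for liver (Pfkl), muscle (Pfkm) and platelets (Pfkp). Pfkl read 6.02 and 6.05 in the knockout arrays, against 5.38 and 5.82 in the control arrays, higher in both by a mean of 0.43 (SE 0.19; limma, adjusted p = 0.484). Without control replicate 1 the difference was 0.21. Pfkp read 6.83 and 7.35 in the knockout arrays, against 6.57 and 6.92 in the control arrays, and the groups overlapped (difference 0.34, SE 0.24). Without knockout replicate 2 it was 0.084, and without knockout replicate 1 it was 0.60. Pfkm was the subunit with a negative difference, -0.23 (SE 0.20), with values of 3.99 and 3.58 in the knockout arrays, against 4.09 and 3.94 in the control arrays, and it was -0.021 without knockout replicate 2.

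Pfkfb3 and Pfkfb4 make the sugar bisphosphate that activates phosphofructokinase-1, and both are HIF targets. Pfkfb3 read 5.44 and 5.82 in the knockout arrays, against 5.62 and 4.59 in the control arrays. The controls were 1.02 log2 units apart, wider than the difference of 0.52 (SE 0.38), which was 1.04 without control replicate 1 and 0.011 without control replicate 2. Pfkfb4 read 3.71 and 4.14 in the knockout arrays, against 3.71 and 3.52 in the control arrays, a difference of 0.31 (SE 0.20) that was 0.095 without knockout replicate 2.

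In the lower part of the path, Aldoc, Pgk1 and Pgam1 were higher in both knockout arrays and Tpi1, Eno2 and Pkm overlapped. For Pgk1 the margin was narrow, with 9.963 on knockout replicate 2 against 9.958 on control replicate 2. Aldoc, the aldolase known from brain, read 4.51 and 4.67 in the knockout arrays, against 4.23 and 4.35 in the control arrays (difference 0.30, SE 0.15; limma, adjusted p = 0.509). Pgam1, which moves the phosphate of 3-phosphoglycerate, read 8.70 and 8.55 in the knockout arrays, against 8.25 and 8.37 in the control arrays (difference 0.32, SE 0.15; limma, adjusted p = 0.485). A second Pgam1 row gave 0.29, also without overlap. Pgam1, Pgk1, Tpi1 and Pkm have processed pseudogenes in rodent genomes, and how far their probes also read such copies was not tested.

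The kinases that yield ATP showed small differences. Pgk1, which makes the first ATP of the path, read 9.97 and 9.96 in the knockout arrays, against 9.79 and 9.96 in the control arrays, a difference of 0.097 (SE 0.14), or 0.010 without control replicate 1. Pkm, pyruvate kinase of most tissues other than liver, read 9.85 in both knockout arrays, against 9.83 and 9.88 in the control arrays, a difference of -0.005 (95% interval -0.35 to 0.34). That sign turned to 0.020 under a second quantile normalisation. Tpi1, the triose-phosphate isomerase, differed by 0.13 (SE 0.22) and by -0.14 without control replicate 1. Eno2, the enolase of neurons, differed by 0.033 (SE 0.22).

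Lactate dehydrogenase converts pyruvate and lactate into each other, and tetramers rich in the Ldhb subunit are classically linked to lactate use. Ldhb read 5.50 and 5.92 in the knockout arrays, against 6.05 and 6.08 in the control arrays, a difference of -0.36 (SE 0.19; limma, adjusted p = 0.541). The groups did not overlap, and the difference was -0.14 without knockout replicate 1 and -0.57 without knockout replicate 2. Ldha, a HIF target and the subunit that favours lactate formation, read 3.89 and 3.59 in the knockout arrays, against 3.63 and 3.95 in the control arrays, with overlap and a difference of -0.044 (SE 0.19). Ldha is ordinarily an abundant transcript of cultured cells, yet its row lay less than 1 log2 unit above the filter level of 3.02 on every array, and what that row detects was not tested.

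Slc16a3 encodes MCT4, the HIF-induced exporter of lactate, and Slc16a1 encodes MCT1, which carries lactate in either direction. Slc16a3 read 5.74 and 5.79 in the knockout arrays, against 4.61 and 5.57 in the control arrays. Both knockout arrays lay above both controls, but the mean difference of 0.67 (SE 0.34; limma, adjusted p = 0.519) was smaller than the gap of 0.96 between the controls, and without control replicate 1 it was 0.19. Slc16a1 read 4.33 and 4.87 in the knockout arrays, against 4.38 and 4.40 in the control arrays, with overlap (difference 0.21, SE 0.22).

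The pyruvate dehydrogenase kinases showed the widest contrasts among isoenzymes of the 8 steps. Pdk1, the isoform that HIF-1 induces, read 5.53 and 5.42 in the knockout arrays, against 3.77 and 4.65 in the control arrays. Both knockout arrays were higher, by a mean of 1.27 (SE 0.32, 95% interval 0.44 to 2.09), a 2.41-fold ratio (limma, adjusted p = 0.300). A second Pdk1 row gave 0.69 in the same direction, with 4.76 and 4.50 in the knockout arrays, against 3.80 and 4.08 in the control arrays. The difference was 0.83 without control replicate 1 and 1.70 without control replicate 2.

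Pdk4, the isoform that fasting and fatty acids raise in muscle and heart, had the opposite sign. It read 5.53 and 5.75 in the knockout arrays, against 7.47 and 6.63 in the control arrays. Both knockout arrays were lower, with a mean difference of -1.41 (SE 0.31, 95% interval -2.23 to -0.59), 0.376 times the control level (limma, adjusted p = 0.266). The controls were 0.85 log2 units apart, and the difference was -0.99 without control replicate 1 and -1.84 without control replicate 2.

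Pdk2, the most widely expressed isoform, read 4.71 and 4.42 in the knockout arrays, against 4.30 and 4.23 in the control arrays (difference 0.30, SE 0.16; limma, adjusted p = 0.543). Pdk3 read 6.21 and 5.93 in the knockout arrays, against 6.28 and 6.36 in the control arrays (difference -0.25, SE 0.16; limma, adjusted p = 0.597). For neither gene did the groups overlap, but the Pdk2 difference was 0.15 without knockout replicate 1 and the Pdk3 difference -0.11 without knockout replicate 2. Pdk1 and Pdk2 thus lay above and Pdk3 and Pdk4 below their control values in both knockout arrays. The promoter windows of Pdk1 and Pdk4, which had opposite signs, are shown with the HIF core in capitals.
Pdk1, chr2:71872974-71873273, plus strand: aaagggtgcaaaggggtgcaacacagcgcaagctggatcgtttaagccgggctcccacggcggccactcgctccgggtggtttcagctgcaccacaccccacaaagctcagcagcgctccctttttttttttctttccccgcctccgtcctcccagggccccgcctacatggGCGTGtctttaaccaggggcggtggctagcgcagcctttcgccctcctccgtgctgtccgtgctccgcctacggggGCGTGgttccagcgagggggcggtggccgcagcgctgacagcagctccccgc
Pdk4, chr6:5496229-5496528, minus strand: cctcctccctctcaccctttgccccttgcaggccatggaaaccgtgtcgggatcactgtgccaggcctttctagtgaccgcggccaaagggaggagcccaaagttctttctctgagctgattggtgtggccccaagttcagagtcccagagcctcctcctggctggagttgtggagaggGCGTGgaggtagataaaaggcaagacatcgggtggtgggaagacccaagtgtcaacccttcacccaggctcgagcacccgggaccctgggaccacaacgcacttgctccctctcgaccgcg
This Pdk1 window held 2 matches on the plus strand and the Pdk4 window 1, while a second Pdk1 window, at a later start, held 0.

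**Figure D2:**
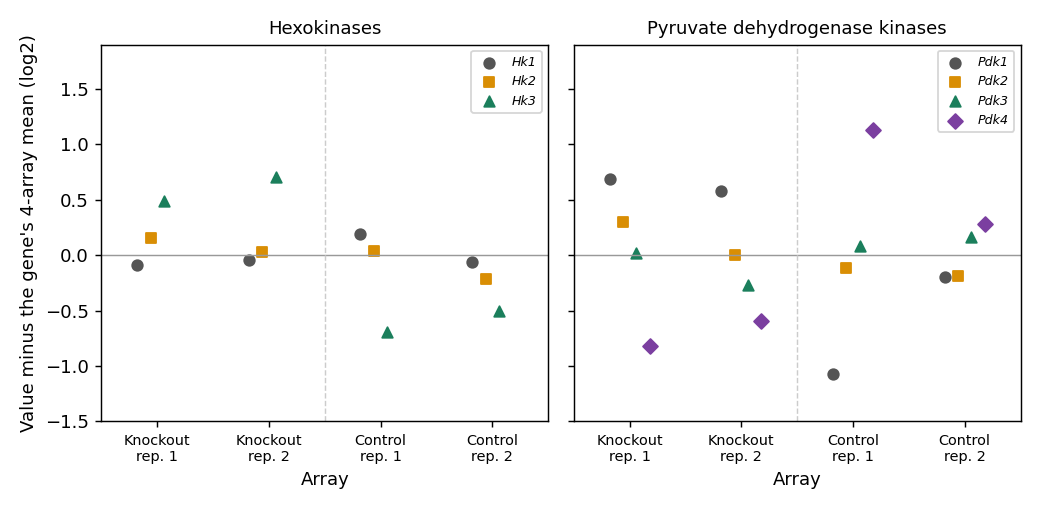
Value of each hexokinase gene (left) and pyruvate dehydrogenase kinase gene (right) minus its own mean over the 4 arrays, on the log2 scale, for each array. Hk3 and Pdk1 lie above 0 on both knockout arrays and below it on both control arrays, Pdk4 shows the reverse, and Pdk1 and Pdk4 are farthest from 0 on control replicate 1.

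Isoenzymes were subtracted from each other within each array. The quantity thus compares the knockout-minus-control differences of a pair of genes and not their levels. There were 17 pairs in 8 steps. Pdk1 minus Pdk4 gave 2.68 (pooled SD 0.88), from a Pdk1 difference of 1.27 and a Pdk4 difference of -1.41. It kept its sign without any single array (1.82 to 3.54). Pdk2 minus Pdk4 gave 1.71 (pooled SD 0.47) and Pdk1 minus Pdk3 gave 1.52 (pooled SD 0.41). Among the hexokinases, Hk1 minus Hk3 gave -1.33 (pooled SD 0.25) and Hk2 minus Hk3 gave -1.02 (pooled SD 0.28), and each kept its sign without any single array.

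Smaller contrasts were seen at other steps. Egln1 minus Egln3 gave -0.76 and Pfkl minus Pfkm gave 0.66, and without control replicate 1 these were -0.17 and 0.37. Slc16a1 minus Slc16a3 gave -0.46 and Ldha minus Ldhb gave 0.31. The pair Hif1a and Epas1 differed by 0.089 (pooled SD 0.25) and the pair Pfkl and Pfkp by 0.087 (pooled SD 0.25). The groups did not overlap in 11 of the 17 pairs, which share genes with each other (each Pdk gene stands in 3). Each of these 11 had the smallest exact permutation p that 2 against 2 allows, 0.333 (0.515 adjusted over the 17 pairs), so none of the pairs passed. The share free of overlap among gene pairs at large was not computed, and the 44.3% of single genes is no background for pairs.

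**Figure D3:**
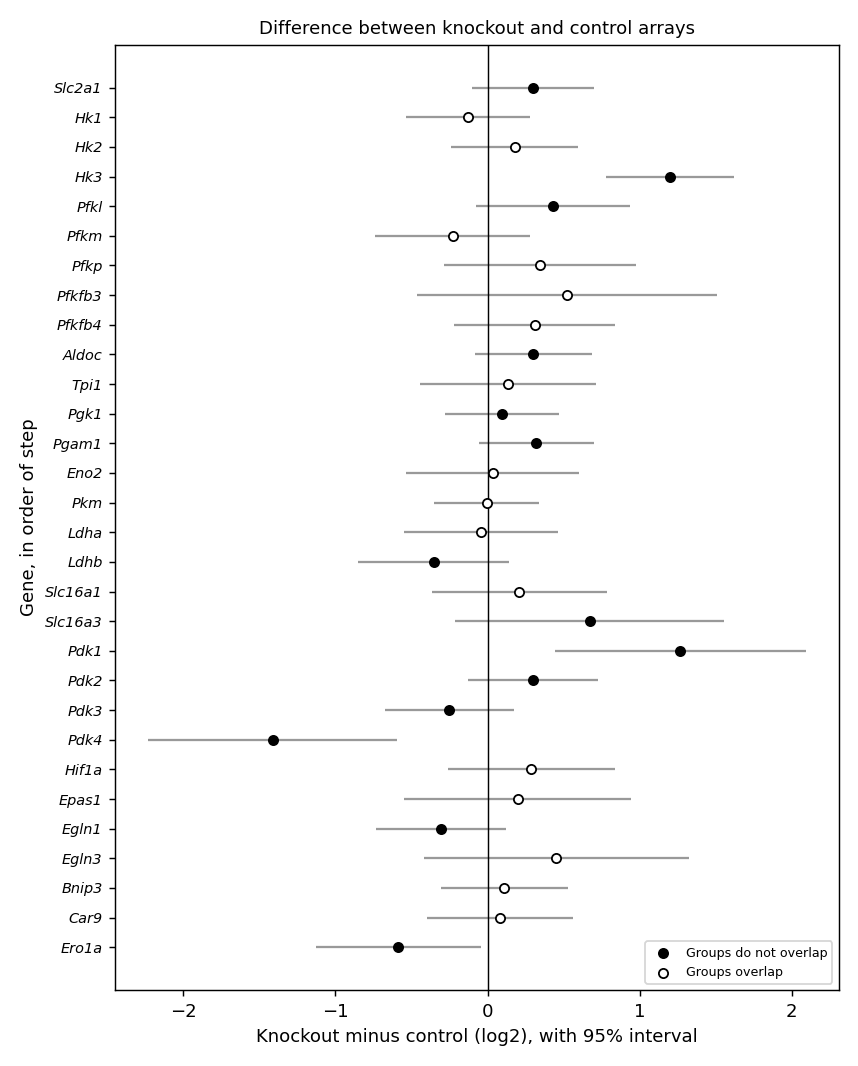
Difference between knockout and control arrays for the 30 genes on the log2 scale (points) with 95% limma intervals (lines, not adjusted for the number of genes). Filled points mark genes whose groups do not overlap, and the intervals of Hk3, Pdk1, Pdk4 and Ero1a leave out 0.

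The genes of the oxygen-sensing machinery showed small differences. Hif1a encodes the alpha subunit of HIF-1 and read 7.78 and 7.59 in the knockout arrays, against 7.17 and 7.63 in the control arrays, with overlap (difference 0.29, SE 0.21). The Hif1a difference was 0.056 without control replicate 1 and 0.52 without control replicate 2. A second, dimmer Hif1a row also overlapped and differed by 0.16. Epas1, the alpha subunit of HIF-2, read 5.80 and 6.03 in the knockout arrays, against 5.35 and 6.09 in the control arrays (difference 0.20, SE 0.29), and differed by -0.17 without control replicate 1. HIF alpha subunits are regulated mainly as proteins, which arrays do not measure.

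Egln1, the main oxygen-sensing hydroxylase, read 7.07 and 6.90 in the knockout arrays, against 7.41 and 7.17 in the control arrays. Both knockout arrays lay below both controls, with a difference of -0.31 (SE 0.16; limma, adjusted p = 0.537), or -0.19 without control replicate 1. Egln3, a hydroxylase that HIF itself induces, read 4.99 and 5.10 in the knockout arrays, against 4.13 and 5.06 in the control arrays, a difference of 0.45 (SE 0.33). Without control replicate 1 the Egln3 difference was -0.015, so its size came from that array.

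The remaining HIF targets went different ways. Ero1a, the oxidase that forms disulfide bonds in the endoplasmic reticulum, read 8.51 and 8.50 in the knockout arrays, against 9.34 and 8.85 in the control arrays. Both knockout arrays were lower, with a difference of -0.59 (SE 0.21, 95% interval -1.13 to -0.04; limma, adjusted p = 0.398). The difference was -0.34 without control replicate 1 and -0.84 without control replicate 2. Its unadjusted limma p, 0.0395, was 0.0504 after a second quantile normalisation, 0.0919 with the mean of its rows, and 0.0118 to 0.141 with single arrays left out, above 0.05 in 3 of those 4 fits. In a second Ero1a row the groups overlapped, with 8.45 and 8.58 in the knockout arrays, against 9.21 and 8.57 in the control arrays. Bnip3, a mitochondrial receptor for autophagy, differed by 0.11 (SE 0.16) with values of 6.28 and 6.14 in the knockout arrays, against 5.99 and 6.22 in the control arrays. Car9, the carbonic anhydrase that marks hypoxic tumour cells, differed by 0.080 (SE 0.18), and its values of 3.33 and 3.49 in the knockout arrays, against 3.51 and 3.15 in the control arrays, lay near the filter level. A second Car9 row, below that level on every array, differed by 0.35 without overlap.

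Much of the variation in these genes lay within the control group. The gap between the 2 arrays of a group had a median of 0.17 log2 units in the knockouts and 0.25 in the controls, against 0.19 and 0.19 over all genes tested. The gap exceeded 0.5 in 2 of the 30 genes among the knockouts (6.67%, against 14.7% of all genes) and in 7 among the controls (23.3%, against 13.8%). These 7 were Pfkfb3, Slc16a3, Egln3, Pdk1, Pdk4, Epas1 and Tpi1. Control replicate 1 was the lowest of the 4 arrays for 15 of the 30 genes (50%), a position it held for 21.5% of all genes. The difference between group means exceeded both within-group gaps for 9 genes: Slc2a1, Hk3, Aldoc, Pgam1, Pdk1, Pdk2, Pdk4, Egln1 and Ero1a. Their share of 30% was near the 31% of all genes.

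**Figure D4:**
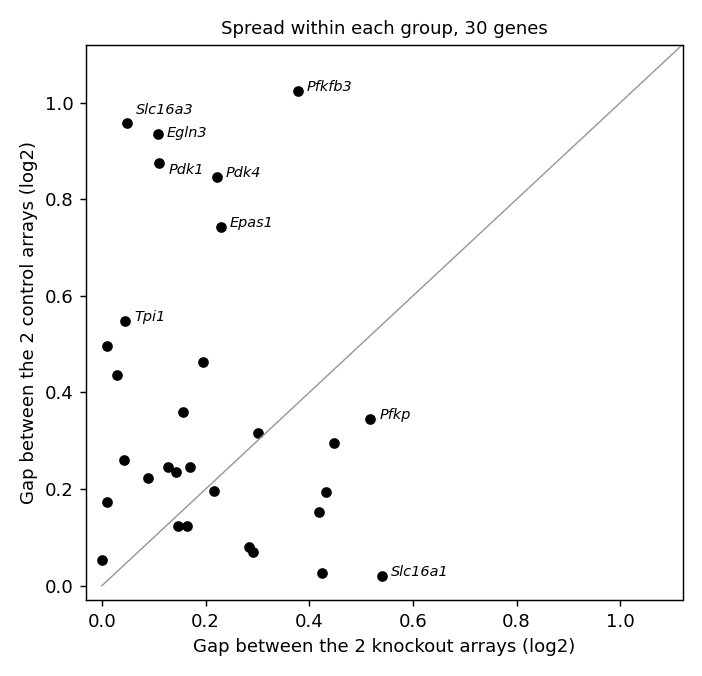
Gap between the 2 control arrays (vertical axis, log2) against the gap between the 2 knockout arrays (horizontal axis, log2) for the 30 genes, with the line of equal gaps. The named points are the genes with a gap above 0.5 in either group, of which 7 lie above the line and Pfkp and Slc16a1 below it.

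Other genes of the same pathways were taken as lists rather than by their values, and limma called 0 of them after adjustment over all genes. Of 21 tested genes around glycolysis and pyruvate entry, 7 were higher and 14 lower (median -0.047). Only 1 of the 21, Pdp1, had an unadjusted p under 0.05 in limma, against 11.7% of all genes. Free of overlap were 3 of the higher and 8 of the lower genes, directions that 16.7% and 27.5% of all genes met without overlap. Pdp1, a phosphatase that reverses the action of the pyruvate dehydrogenase kinases, read 4.83 and 4.97 in the knockout arrays, against 4.16 and 4.36 in the control arrays (difference 0.64, SE 0.15; limma, adjusted p = 0.283). Mpc1, a subunit of the mitochondrial pyruvate carrier, differed by 0.69 (SE 0.33), Slc16a7, which encodes MCT2, by 0.45 and Pgam5, a mitochondrial phosphatase, by -0.53, all 3 without overlap. Gapdh, the glyceraldehyde-phosphate dehydrogenase, read 10.85 and 10.94 in the knockout arrays, against 10.84 and 10.89 in the control arrays (difference 0.030).

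Of 35 other tested genes of the HIF pathway and its targets, 16 were higher and 19 lower (median -0.011), and 18 were higher and 17 lower under a second quantile normalisation. At an unadjusted p under 0.05 in limma there were 5 of the 35, 3 higher and 2 lower, a share near the 11.7% of all genes. Without control replicate 1 it was 1, Plod1. Mxi1, a HIF-induced antagonist of Myc, differed by 0.95 (SE 0.24; limma, adjusted p = 0.316) and Plod1, a collagen lysyl hydroxylase, by 0.64 (SE 0.14; limma, adjusted p = 0.262). Narf differed by 0.49, Gbe1, the glycogen branching enzyme, by -0.43, and Cited2, which competes with HIF for its co-activators, by -0.60 (SE 0.19; limma, adjusted p = 0.358). Vegfa, the angiogenic factor and best-known HIF target, overlapped between groups, with 7.79 and 7.41 in the knockout arrays, against 7.25 and 7.55 in the control arrays. Ndufa4l2, a HIF-induced mitochondrial protein, had the positive difference of greatest size on this list, 1.29 (SE 0.87), with 6.33 and 6.09 in the knockout arrays, against 3.60 and 6.23 in the control arrays. The control mean was low because of control replicate 1, which was also the lowest array for Slc16a3, Egln3 and Pdk1.

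The tricarboxylic acid cycle, which oxidises what the pyruvate dehydrogenase complex supplies, had 13 of 16 tested genes lower in the knockout arrays (median -0.15), 9 of them without overlap (58.3% of all genes were lower and 27.5% lower without overlap). From 13 to 15 were lower under every alternative run, and the median was -0.080 without knockout replicate 1, where that of all genes was -0.044. Suclg2, a succinyl-CoA ligase subunit, was the 1 gene of the 16 with an unadjusted p under 0.05 (11.7% of all genes), at -0.61 (SE 0.18; limma, adjusted p = 0.349). Dlst, the succinyltransferase of the 2-oxoglutarate dehydrogenase complex, differed by -0.31, Cs, citrate synthase, by -0.19, and Sucla2 by -0.16. Of 7 tested genes of the pentose phosphate pathway, which makes NADPH from glucose 6-phosphate, 3 were higher and 4 lower. None of the 7 was free of overlap, against 44.3% of all genes.

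Other cell types and the cell cycle varied between the same arrays. The 10 tested endothelial markers, of 12 on the list, had mean log2 levels of 4.63 and 4.71 in the knockout arrays, against 6.12 and 5.66 in the control arrays, and 7 of them were lower without overlap (27.5% of all genes). Pecam1, the adhesion molecule CD31, differed by -2.49 and Ptprb, an endothelial phosphatase, by -2.88. On average 3 of the 10 were higher, among them Kdr, a VEGF receptor, by 0.32. Tek and Cldn5 lay below the filter. The 6 tested proliferation markers averaged 5.98 and 7.25 in the knockout arrays, against 6.36 and 7.05 in the control arrays. These averages differed more within groups than between them, though 1 of the 6 markers was higher without overlap (16.7% of all genes). The 7 tested fibroblast markers averaged 6.72 and 6.70 in the knockout arrays, against 6.49 and 7.02 in the control arrays. Among them Dpt, an extracellular matrix protein, read 4.40 and 5.28 in the knockout arrays, against 6.87 and 5.84 in the control arrays (difference -1.51, SE 0.46; limma, adjusted p = 0.356). The collagen genes Col1a1 and Col1a2 differed by 0.29 and 0.24 without overlap. Of the 10 smooth muscle markers 3 were lower without overlap, a share near the 27.5% of all genes. Their differences were -0.55 for Smtn (SE 0.15; limma, adjusted p = 0.335), -0.17 for Cald1 and -0.14 for Myocd. All 5 lymphocyte markers with a row of their own lay below the filter, and 0 of 5 erythroid markers had such a row. The part of these cell types in the Pdk1, Pdk4 and Ero1a differences was not tested.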

How the data were processed

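Per the submitters' processing notes, the authors deposited RMA values of Mouse Gene ST 2.1 arrays, and the log2 scale was taken from their range (1.17 to 12.4). The sources used here name no software version, chip definition or array batch. Per the labels' protocols, RNA was amplified to cDNA before hybridisation. Of 41345 rows, 23521 carried 1 gene symbol in the platform annotation, 1814 several and 16010 none. The brightest row on average stood for a gene, and genes with a mean of at least 3.02, the median of all row means, were tested. Knockout and control were compared in limma 3.58.1 under R 4.3.3 (lmFit, then eBayes) with no covariate, and p-values were adjusted by Benjamini-Hochberg over 12550 genes. It was tested on simulated data.

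Pairs of isoenzymes were compared by a two-sided exact permutation test on the within-array log2 difference, adjusted over 17 pairs. The genes, lists and tests were chosen with earlier results of these data known. All 34 genes were named or counted. From every other list, the rule named Mmp14 and up to 4 non-overlapping genes of greatest difference. Of these, Mrc1 (log2 difference 2.08), Fcgr1 (1.52), Cdh5 (-2.51), Emcn (-2.48) and Pcna (0.365) were not described above. Apoe, Cd163, Cldn5, Gapdh, Gbe1, Kdr, Ndufa4l2, Tagln, Tek and Vegfa were named after their values were seen. Promoter windows came from RefSeq (GRCm38.p6). Title numbers 1 and 2 are not said to mark pairs, so a block by number is an alternative. Alternatives were this block, 2 filters, 2 normalisations, the mean of a gene's rows, 2 eBayes settings, array weights and leaving out each array. Matplotlib 3.10.9 drew the plots.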

Additional observations from a re-analysis of the deposited data

How the results depend on the processing

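No gene was called by limma in the main fit or under any alternative run (0 in each), and the smallest adjusted p over all genes ranged from 0.0708 to 0.429 over these fits. At an unadjusted p under 0.05 there were 1465 genes. The 75th percentile filter tests fewer genes, 929 of which (13.7%) were at that level. It kept 19 of the 30 genes, with 2 at that level instead of 4, since Hk3 and Pdk1 lie below it. With single arrays left out, 975 to 1535 genes and 3 to 7 of the 30 were at that level, with 975 and 7 in the fits without control replicate 1 and without control replicate 2. In the same fits 20 to 24 of the 30 were free of overlap, against 70.9% to 73.5% of all genes, since 3 arrays overlap less often by construction. The median of the 30 ran from 0.033 to 0.22. With the title number as a replicate block, 1527 genes and 4 of the 30 were at an unadjusted p under 0.05, and no call changed. Same-numbered arrays shared deviations at r = 0.045 across the 12550 genes, which are not independent replicates.

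The adjusted p ranged over the fits from 0.111 to 0.464 for Hk3, 0.213 to 0.520 for Pdk1, 0.195 to 0.501 for Pdk4 and 0.337 to 0.733 for Ero1a. Of the settings that kept all 4 arrays, only the 2 normalisations and the mean of a gene's rows could move a difference. The others left every difference as in the main fit. Under those that could, Pkm (0.020 under a second quantile normalisation) was the only tested gene of the 30 to turn its sign. The sign of 10 genes turned when 1 array was left out, and the cause was not tested. Their ranges were -0.26 to 0.0012 for Hk1, -0.14 to 0.41 for Tpi1, -0.19 to 0.26 for Eno2, -0.032 to 0.022 for Pkm, -0.20 to 0.11 for Ldha, -0.061 to 0.48 for Slc16a1, -0.17 to 0.57 for Epas1, -0.015 to 0.92 for Egln3, -0.0073 to 0.23 for Bnip3 and -0.10 to 0.26 for Car9. Of the 17 isoenzyme pairs, 5 turned sign in this way: Pfkl minus Pfkp (-0.16 to 0.33), Ldha minus Ldhb (-0.052 to 0.67), Hif1a minus Epas1 (-0.12 to 0.30), Slc16a1 minus Slc16a3 (-0.93 to 0.0058) and Pfkfb3 minus Pfkfb4 (-0.20 to 0.63). In those fits the lone array of a group is taken to vary as the other group does. The array number, 2 a group, limits what can pass.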
